A study of Mus musculus with 198 samples.

Results

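The genes described here are Mycl1, Cdkn2c, Hsf4, Nxph4, Pi16, Enpp7 and Spata4, 7 of the 34193 gene rows in the authors' table of methylation per gene and of the 21060 genes with a CG value in all 8 deep cortex libraries. They were chosen from their own CG methylation (mCG) values, because every heterozygous Dnmt3a knockout animal lay below every wild-type animal by a wide margin. The mCG and CA methylation (mCA) values of these genes in the 8 animals are therefore given as a description, with no test.

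The series profiled cytosine methylation by whole-genome bisulfite sequencing in 198 samples of mouse brain regions, liver and cultured cortical neurons. The 8 libraries used here came from the cortex of C57BL/6J mice at 8 weeks, 4 carrying a heterozygous Dnmt3a knockout (hKO) and 4 wild-type littermates (WT), with 2 males and 2 females of each genotype. The hKO animals were 046-2 and 694 (males) and 047-1 and 651-2 (females), and the WT animals were 046-1 and 695 (males) and 047-2 and 651-3 (females). The labels give these libraries 6.4 to 7.8 times genome coverage, and name a further sequencing instrument for the libraries of the females only, so that sex and instrument cannot be told apart, while both are balanced over genotype. Every value is an average over bulk tissue, in which methylation lost from some cells and a changed mixture of cells cannot be told apart.

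DNMT3A is a methyltransferase that adds methyl groups to DNA that carried none at that place. In most cell types methylation sits at CG dinucleotides, where it is copied at each cell division by DNMT1. Neurons also build up methylation at CA dinucleotides after birth, which depends on DNMT3A. The 7 genes have unrelated roles. Mycl1 (named Mycl in RefSeq) encodes L-MYC, a MYC family transcription factor that pairs with MAX, and Hsf4 encodes a heat shock transcription factor best known from the lens. Cdkn2c encodes the inhibitor p18-INK4c of the cell cycle kinases CDK4 and CDK6. Nxph4 encodes a secreted protein of the neurexophilin family, whose members bind the presynaptic neurexins, and Pi16 encodes a CAP domain protein. Enpp7 encodes the alkaline sphingomyelinase of the intestine, and Spata4 is a testis gene named for spermatogenesis.

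The 7 genes lie on several chromosomes: Mycl1 and Cdkn2c on chromosome 4, Hsf4 and Spata4 on chromosome 8, Nxph4 on chromosome 10, Enpp7 on chromosome 11 and Pi16 on chromosome 17 in RefSeq.

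The start regions of these genes differ in how many CG sites they offer for methylation. RefSeq promoter sequences (GRCm38.p6, 300 bases each, most of them before a start) were matched for 5 of the 7 genes, and not for Hsf4 and Nxph4. The 3 shown span the richest and the poorest of them, with each CG in capitals. The letters CG read the same on both strands.
Cdkn2c, chr4:109666707-109667006, minus strand: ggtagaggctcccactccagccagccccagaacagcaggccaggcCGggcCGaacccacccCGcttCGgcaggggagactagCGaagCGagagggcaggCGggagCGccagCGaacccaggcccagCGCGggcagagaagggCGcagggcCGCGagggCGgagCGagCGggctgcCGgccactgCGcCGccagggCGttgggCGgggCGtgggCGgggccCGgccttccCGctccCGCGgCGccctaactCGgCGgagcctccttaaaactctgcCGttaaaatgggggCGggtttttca
Mycl1, chr4:122995681-122995980, plus strand: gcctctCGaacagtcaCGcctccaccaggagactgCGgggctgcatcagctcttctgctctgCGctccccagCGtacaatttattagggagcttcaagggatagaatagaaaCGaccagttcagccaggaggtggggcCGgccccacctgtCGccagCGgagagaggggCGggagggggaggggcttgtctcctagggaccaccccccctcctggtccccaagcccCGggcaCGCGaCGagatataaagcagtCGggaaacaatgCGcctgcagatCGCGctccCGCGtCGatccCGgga
Pi16, chr17:29318632-29318931, plus strand: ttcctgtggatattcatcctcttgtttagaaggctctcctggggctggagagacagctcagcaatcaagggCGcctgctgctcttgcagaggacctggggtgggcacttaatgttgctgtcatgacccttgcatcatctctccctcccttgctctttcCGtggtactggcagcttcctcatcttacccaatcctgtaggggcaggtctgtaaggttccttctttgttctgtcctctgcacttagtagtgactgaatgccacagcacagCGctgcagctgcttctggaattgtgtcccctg
The Cdkn2c promoter held 33 CG sites, a number reached by 8.56% of the 32851 promoters in the RefSeq table, and the Mycl1 promoter 22, reached by 23.1%. The Pi16 promoter held 3, reached by 76.7%. The Enpp7 promoter (chr11:118987931-118988230, plus strand) held 7 and the Spata4 promoter (chr8:54600531-54600830, plus strand) 8, near the median promoter, which held 7. A second Cdkn2c start (chr4:109665323-109665622, minus strand) also held 8. At least 1 CG was present in 94.6% of all promoters. The authors' values are 1 average per gene, in mm9, so they do not show where in a gene methylation was lost, and no promoter value was analysed here.

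**Figure D1:**
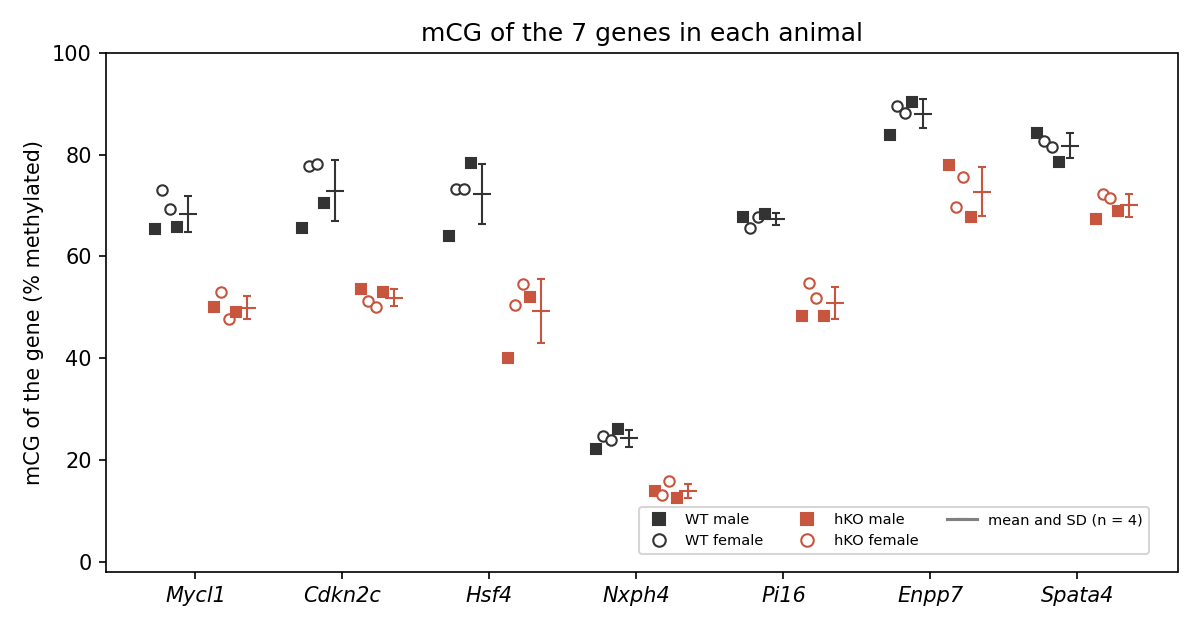
mCG of each of the 7 genes (y axis, percent of CG methylated) in the 4 WT and 4 hKO animals, with males as squares, females as circles and the mean with its SD beside each group. In each gene the hKO points lie under the WT points, from Nxph4 at the bottom (WT mean 24.2%) to Enpp7 at the top (WT mean 88.0%).

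Among the transcription factor genes, Mycl1 had the widest separation of all 21060 genes. Its mCG was 65.4% in WT animal 046-1, 73.0% in 047-2, 69.2% in 651-3 and 65.8% in 695, against 50.2% in hKO animal 046-2, 53.0% in 047-1, 47.7% in 651-2 and 49.1% in 694. The lowest WT animal thus stood 12.4 percentage points above the highest hKO animal, and the mean fell by 18.4 points, from 68.4% ± 3.55 to 49.97% ± 2.25 (SD, n = 4). Hsf4 mCG was 64.1%, 73.3%, 73.2% and 78.4% in the WT animals 046-1, 047-2, 651-3 and 695, and 40.1%, 50.5%, 54.5% and 52.1% in the hKO animals 046-2, 047-1, 651-2 and 694, which is the order used for all genes below. Both lowest values came from animals numbered 046, and the groups stayed 9.56 points apart. The Hsf4 mean fell by 22.96 points, from 72.3% ± 5.95 to 49.3% ± 6.35, the largest fall of the 7 genes and also the widest spread within the hKO group.

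Cdkn2c, the CDK inhibitor gene, went from high and scattered WT values to closely grouped hKO values. Its mCG was 65.6%, 77.8%, 78.1% and 70.4% in WT and 53.6%, 51.2%, 50% and 52.9% in hKO animals. The WT females stood above the WT males while the hKO females stood just under the hKO males, so that the mean fell by 27.4 points in females and fell by 14.7 points in males. Over both sexes the mean fell by 21.0 points, from 72.97% ± 6.07 to 51.9% ± 1.65 (SD, n = 4), with a gap of 11.96 points between the groups.

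Of the genes for secreted proteins, Nxph4 had by far the lowest mCG and lost the largest share of it. Its mCG was 22.2%, 24.7%, 24.0% and 26.1% in WT and 14.0%, 13.1%, 15.9% and 12.6% in hKO animals. The hKO mean of 13.9% ± 1.44 was 57.3% of the WT mean of 24.2% ± 1.63, a loss of 10.4 points, and both groups were narrow. Pi16 mCG was 67.7%, 65.7%, 67.7% and 68.4% in WT and 48.3%, 54.8%, 51.8% and 48.3% in hKO animals. Its WT animals lay close together, the hKO males were lowest, and the mean fell by 16.6 points, from 67.4% ± 1.17 to 50.8% ± 3.16, with a gap of 10.9 points.

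Enpp7 and Spata4, genes best known from intestine and testis, began from higher levels. Enpp7 mCG was 84.0%, 89.7%, 88.2% and 90.3% in WT and 78.0%, 69.7%, 75.6% and 67.9% in hKO animals. The mean fell by 15.3 points, from 88.0% ± 2.85 to 72.8% ± 4.78, but the hKO animal 046-2 came within 5.99 points of the lowest WT animal, the smallest gap of the 7 genes. Spata4 mCG was 84.3%, 82.8%, 81.5% and 78.6% in WT and 67.3%, 72.3%, 71.6% and 69.0% in hKO animals. Both groups were tight, and the mean fell by 11.8 points, from 81.8% ± 2.40 to 70.0% ± 2.29, with a gap of 6.36 points.

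Read across the animals, the 7 genes did not share 1 extreme hKO library. The mean mCG over the 7 genes was 64.7%, 69.6%, 68.8% and 68.3% in the WT and 50.2%, 52.1%, 52.4% and 50.3% in the hKO animals, in the order above. With the sexes pooled, the medians over all genes overlapped between genotypes, at 77.3% to 82.2% in WT and 75.1% to 79.5% in hKO libraries. Within each sex they did not overlap, and the hKO medians were lower. Male medians were 77.3% and 78.2% in WT and 75.1% and 76.6% in hKO libraries. Female medians were 79.8% and 82.2% in WT and 77.1% and 79.5% in hKO libraries. WT animal 046-1, which had the lowest median of the WT libraries, was the lowest WT animal in 5 of the 7 genes, whereas the lowest hKO animal was 046-2 in 3 genes, 651-2 in 2 and 694 in 2. All 7 genes were lower in hKO animals within each sex, with the larger fall in males for 4 of them (hKO minus WT -25.2 in males and -20.8 points in females for Hsf4, -10.9 and -9.82 for Nxph4, -19.8 and -13.4 for Pi16, and -13.3 and -10.2 for Spata4).

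The choice of the 7 genes by their mCG sets these differences apart from the typical gene in advance, so the comparison only describes their size. Over all 21060 genes the median mCG difference, hKO minus WT, was -2.18 points, and the hKO mean was at a median 97.2% of the WT mean (5th to 95th percentile 88.4% to 103.1%). The 7 genes had a median difference of -16.6 points and kept a median 73.1% of the WT level, from 57.3% in Nxph4 to 85.6% in Spata4. Groups that did not overlap, with every hKO animal lower, occurred in 1041 genes, or 4.94% of those measured, and in 7 of 7 of these genes by the way they were chosen. Leaving out WT animal 046-1, WT animal 695 or hKO animal 651-2 raised that count over all genes to 3359, 1697 and 4309. No gene of the 21060 (0%) passed limma's moderated test with Benjamini-Hochberg adjustment, the smallest adjusted p being 0.195. At an unadjusted p under 0.05, limma gave 2195 genes, 2124 of them lower in hKO, and no other tool was run.

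The choice of the 7 genes was not a complete list of wide gaps. A gap at least as wide as that of Enpp7 was found in 29 genes, of which 22 are not among the 7. The widest of the others were Nanos1, at 90.2% in WT and 56.5% ± 21.5 in hKO animals (gap 12.0 points), and Qrfp (71.9% and 52.1%, gap 10.03), Uts2 (67.9% and 49.6%, gap 9.48), Bcl2l10 (87.0% and 72.1%, gap 9.43) and Ankrd33 (74.7% and 55.7%, gap 8.33). Just inside the limit stood Enpp7 with 5.99 points and Nxph4 and Spata4 with 6.36 each. Just outside it stood Gm14264 with 5.99, Lag3 with 5.96 and D17H6S56E-3 with 5.80. By the size of the mean fall alone, Hsf4 ranked 37th of all genes and Nxph4 390th.

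Starting level and CG content were not shared by the 7 genes. The WT mCG of Nxph4 stood at the 1.56th percentile of genes and that of Enpp7 at the 94.0th, and 5 of the 7, all but Enpp7 and Spata4, began under the median gene (79.4%). Of the 1611 genes with a WT mCG under 60%, 7.82% had groups that did not overlap, against 2.91% of the 3506 genes at or above 85%. CG density was taken as the deposited WT mean of methylated CG per length over the WT mCG fraction, set against the median gene. This density was 2.88 times the median in Nxph4, 2.53 in Pi16, 1.81 in Mycl1, 1.34 in Enpp7 and 1.22 in Hsf4. It was 0.574 times the median in Spata4 and 0.473 in Cdkn2c, whose promoter nevertheless held the most CG sites of the 5 found in RefSeq.

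**Figure D2:**
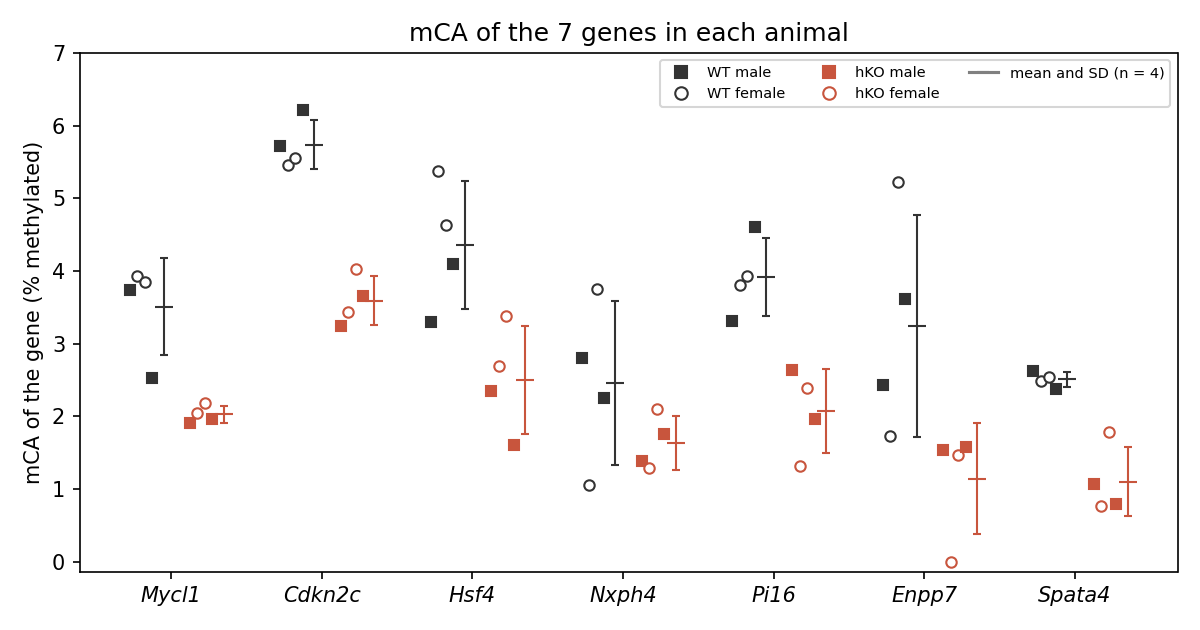
mCA of each of the 7 genes (y axis, percent of CA methylated) in the 4 WT and 4 hKO animals, drawn as in the plot of mCG. Cdkn2c has the highest values in both groups (means 5.74% and 3.59%), and WT and hKO points overlap in Hsf4 and Nxph4.

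In mCA the 7 genes also had lower hKO means, but so did 97.1% of the 21302 genes measured in this context. Cdkn2c mCA was 5.71%, 5.46%, 5.56% and 6.22% in WT and 3.25%, 3.44%, 4.03% and 3.65% in hKO animals. It was the most CA-methylated of the 7 genes, at the 99.1th percentile of genes in WT cortex, and the groups were 1.43 points apart. Spata4 mCA was 2.63%, 2.49%, 2.54% and 2.38% in WT and 1.06%, 0.764%, 1.79% and 0.790% in hKO animals, with a single hKO animal, 651-2, above the rest. Pi16 mCA was 3.32%, 3.81%, 3.94% and 4.61% in WT and 2.64%, 1.32%, 2.38% and 1.96% in hKO animals, a separation of 0.676 points.

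Mycl1 and Enpp7 each had 1 animal far from its group. Mycl1 mCA was 3.74%, 3.93%, 3.85% and 2.52% in WT and 1.92%, 2.05%, 2.18% and 1.96% in hKO animals, so that WT animal 695 narrowed the gap to 0.339 points. Enpp7 mCA was 2.43%, 1.74%, 5.22% and 3.61% in WT and 1.54%, 0%, 1.46% and 1.58% in hKO animals. The Enpp7 WT values spanned 1.74% to 5.22%, the hKO animal 047-1 was listed at 0, and no coverage stands beside these values. Without that animal the Enpp7 difference was -1.72 points, against -2.10 with it.

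The mCA values of Hsf4 and Nxph4 overlapped between genotypes. Hsf4 mCA was 3.30%, 5.38%, 4.64% and 4.10% in WT and 2.34%, 2.69%, 3.39% and 1.60% in hKO animals, where hKO animal 651-2 lay just above WT animal 046-1. Nxph4 mCA was 2.81%, 1.05%, 3.75% and 2.25% in WT and 1.38%, 1.29%, 2.10% and 1.76% in hKO animals, and WT animal 047-2 was the lowest of all 8. The Nxph4 difference of -0.830 points became -0.401 without WT animal 651-3 and -1.30 without WT animal 047-2. It turned to 0.0809 when the median of each library was subtracted, a setting in which a fall smaller than that of the library medians comes out above 0. The other 6 mCA differences kept their sign in that setting but shrank, to -0.572 points in Mycl1, -1.24 in Cdkn2c, -0.938 in Hsf4, -0.929 in Pi16, -1.19 in Enpp7 and -0.497 in Spata4.

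Set against all genes, the 7 genes differed less from the typical gene in mCA than in mCG, the context by which they were chosen. The choice itself places them far out in mCG, so this contrast is not a finding about these genes. The hKO mCA mean was 57.8% of WT in Mycl1, 62.6% in Cdkn2c, 57.5% in Hsf4, 66.3% in Nxph4 and 53.0% in Pi16, where the median over all genes was 56.6% (5th to 95th percentile 43.8% to 86.0%). Enpp7 at 35.2% lay under this range, and Spata4 at 43.9% was at its edge. The place of Enpp7 turned on hKO animal 047-1, listed at 0: without it the share was 46.98%, inside the range of all genes over the same animals (45.4% to 92.1%). Spata4 moved to 48.4% without that animal and to 34.8%, under the range of 39.1% to 78.9%, without hKO animal 651-2. In points, the median mCA difference was -1.84 for the 7 genes and -0.907 for all genes, and all 7 began above the median WT mCA of 2.07%. Groups did not overlap in 5 of the 7 genes, against 64.6% of all genes. Over all genes, limma called 72.1% lower at a Benjamini-Hochberg adjusted p under 0.05, which is 15369 lower and 7 higher. With the median of each library subtracted the split was 5283 lower and 6523 higher. In that setting a gene that lost fewer points than the library medians counts as higher, also where its own mCA fell. The medians themselves were 1.91% to 2.43% in WT and 1.01% to 1.32% in hKO libraries.

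**Figure D3:**
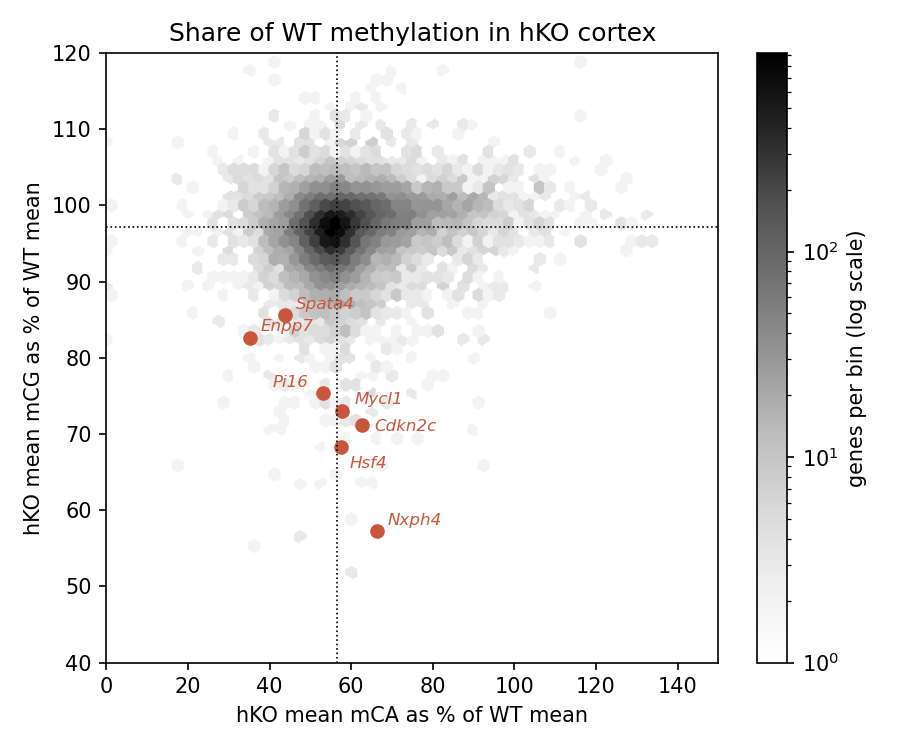
Share of the WT mean kept in hKO cortex for mCA (x axis, percent) and mCG (y axis, percent), with 21015 genes as grey bins on a log count scale (215 lie beyond the axes), the 7 genes in red and dotted lines at the medians of all genes. The 7 genes lie low on the mCG axis, at 57.3% to 85.6%, by the way they were chosen. On the mCA axis 5 of them stand between 53.0% and 66.3% and Spata4 and Enpp7 stand further left.

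The genes beside the 7 in the genome, which were not used in the choice, are described next. The nearest measured gene on each side gave 14 neighbours, none of which overlaps its partner in RefSeq. The mean mCG was lower in hKO animals in all 14, against 84.0% of all genes, with a median difference of -2.60 points and a range of -6.33 to -0.409. None fell by as many points as the gene it neighbours, but the 7 genes were chosen for wide mCG gaps and the neighbours were not. The comparison therefore does not show how far along the chromosome a fall reaches. None passed limma in mCG after Benjamini-Hochberg adjustment.

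The largest of these differences was next to Hsf4. Fbxl8, which encodes an F-box protein, had an mCG of 12.9% ± 4.38 in WT and 6.62% ± 2.18 in hKO animals. It was the 1 neighbour of 14 whose groups did not overlap (gap 0.319 points, limma adjusted p = 0.476), where 4.94% of all genes did not. From its low level Fbxl8 kept 51.1% of the WT mean, a smaller share than Hsf4 (68.2%) or any other of the 7 genes. On the other side of Hsf4, Nol3 had 81.2% ± 6.08 and 76.4% ± 2.96. Around Mycl1, the lysophosphatidylcholine transporter gene Mfsd2a differed by -2.04 points and the tRNA modification gene Trit1 by -3.54. Around Cdkn2c, 9630013D21Rik and Faf1 differed by -2.26 and -2.71 points. Shmt2 (serine hydroxymethyltransferase of mitochondria) and Lrp1 (a lipoprotein receptor) stood at -3.02 and -1.61 beside Nxph4. BC004004 and Mtch1 stood at -3.08 and -3.86 beside Pi16. Rbfox3 (the neuronal marker NeuN) and the Polycomb gene Cbx2 stood at -2.06 and -0.409 beside Enpp7, and Asb5 and Wdr17 at -2.48 and -0.979 beside Spata4. Cbx2 and Wdr17 had the smallest differences of the 14.

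In mCA, 12 of the 14 neighbours (85.7%, against 72.1% of all genes) were called lower by limma at a Benjamini-Hochberg adjusted p under 0.05. With the median of each library subtracted, where falls smaller than that of the medians count as higher, 2 were called lower and 4 higher. The neighbours not called were Fbxl8 (limma adjusted p = 0.403) and Shmt2 (limma adjusted p = 0.203). The largest fall was that of 9630013D21Rik beside Cdkn2c, from 8.07% ± 1.10 to 5.02% ± 1.44 (limma adjusted p = 0.0149). Its difference of -3.05 points exceeded that of Cdkn2c itself (-2.15 points), and Cbx2, from 4.35% ± 0.854 to 2.20% ± 0.362 (limma adjusted p = 0.00156), fell slightly further than Enpp7 (-2.15 against -2.10 points).

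**Figure D4:**
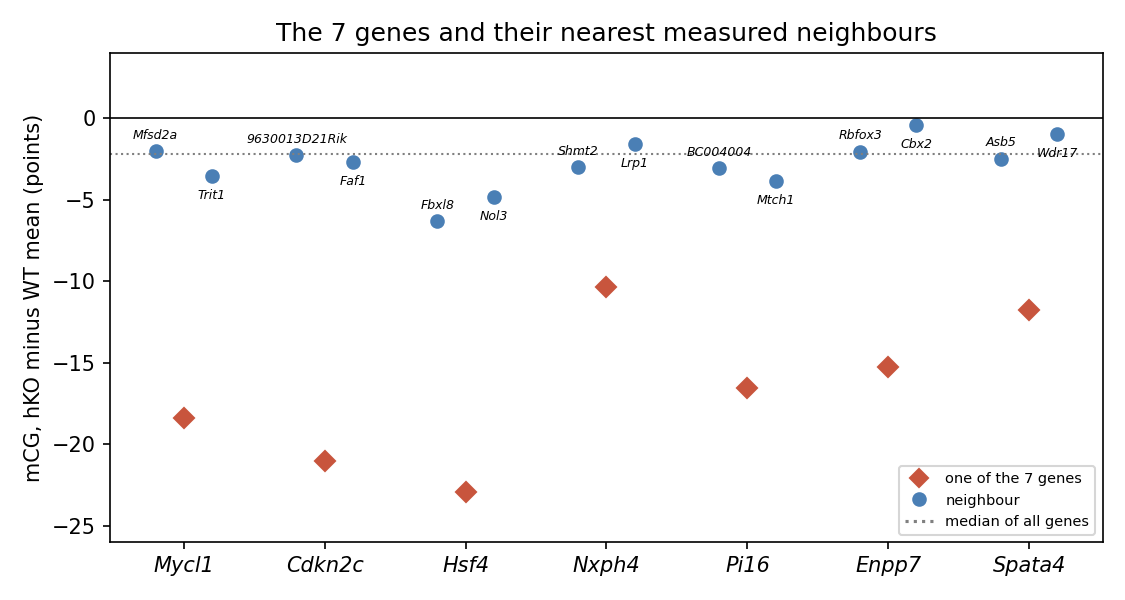
Difference in mean mCG, hKO minus WT (y axis, percentage points), for the 7 genes (red diamonds) and the nearest measured gene on each side (blue circles), with the median of all genes (-2.18) as a dotted line. The 14 neighbours lie between -6.33 and -0.409, above every one of the 7 genes, which were chosen for wide mCG gaps and lie between -22.96 and -10.4.

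Genes of the same families and pathways gave a further comparison. The 7 lists held 93 measured relatives. In mCG, none of the 93 passed limma after Benjamini-Hochberg adjustment. A lower hKO mean occurred in 81 of them (84.0% of all genes) and groups that did not overlap in 7 (4.94% of all genes). The median difference was -2.45 points, close to that of all genes. The family medians ranged from -2.02 points in the ENPP and sphingomyelin genes to -3.60 in the G1 cell cycle genes. The largest difference was in Myc, whose mCG was 59.4% ± 10.4 in WT and 49.1% ± 7.74 in hKO animals with overlapping groups (limma adjusted p = 0.480). By share, the relatives kept a median 96.7% of the WT mean. The smallest share was 66.2%, in the CDK inhibitor gene Cdkn2a, from 12.5% ± 1.77 to 8.26% ± 1.20 (gap 0.0321 points, limma adjusted p = 0.476).

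In mCA, 75 of the 93 relatives (80.6%) were called lower by limma at a Benjamini-Hochberg adjusted p under 0.05 and none higher, against 72.1% of all genes, and they kept a median 55.1% of the WT level. With the median of each library subtracted, 30 of the 93 were called lower, and in females alone 36. All 13 CAP domain relatives of Pi16 passed, among them Glipr2 (4.57% to 2.49%, adjusted p = 0.00135) and Crispld2 (4.17% to 2.25%, adjusted p = 0.000692). Of the MYC network 8 of 12 passed, with Mycn at 3.94% and 1.69% (adjusted p = 0.00126) and the MAX partner Mxi1 at 2.81% and 1.51% (adjusted p = 0.000693). Of the heat shock and lens genes 11 of 13 passed, with Hsf2bp at 4.59% and 2.41% and the small heat shock protein gene Hspb8 at 4.19% and 2.12%.

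The counts of the other lists are likewise to be read against the 72.1% of all genes called lower in mCA. The G1 cell cycle list around Cdkn2c had 9 of 15 pass in mCA. Among them was Cdk6, one of the kinases that p18-INK4c inhibits, at 4.32% ± 0.425 in WT and 2.44% ± 0.187 in hKO animals (limma adjusted p = 0.000692). Of the 4 measured CDK inhibitors in this list 1 passed, Cdkn1b, the gene of p27, at 4.02% ± 0.651 and 1.96% ± 1.40 (limma adjusted p = 0.0163). Of the neurexophilins and neurexins 5 of 6 passed, with Nxph1 at 3.08% and 1.68% and Nrxn2 at 2.64% and 1.57%. Of the ENPP and sphingomyelin genes 14 of 17 passed, with the ceramidase gene Acer2 at 3.45% and 1.76% and Enpp3 at 3.44% and 1.78%. Of the other genes named for spermatogenesis 15 of 17 passed, with Spata13 at 5.27% and 2.90% and Spata20 at 5.29% and 3.33%.

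The targeted gene and the cell type markers were read in the same way. Dnmt3a mCG was 63.2% ± 1.33 in WT and 57.6% ± 1.88 in hKO animals, without overlap but without passing limma (adjusted p = 0.476), and its mCA fell from 1.25% to 0.761% (limma adjusted p = 0.0115); methylation of the gene does not check the deletion. Of 44 markers of cortical neurons, glia and endothelium, 41 were measured. In mCG none passed limma, and none had groups without overlap (4.94% of all genes). The median difference was -3.07 points, with 39 of 41 lower in hKO animals (84.0% of all genes). The largest fall was in Fezf2, from 34.1% ± 12.6 to 19.4% ± 7.61 with overlapping groups (limma adjusted p = 0.476). That is more points than Nxph4 or Spata4 lost, and 56.9% of the WT mean was kept, against a median 95.3% over the markers. In mCA 32 of 41 (78.0%) were called lower by limma, against 72.1% of all genes, with a median difference of -1.25 points. Methylation of marker genes is not a count of cells, and the part of cell mixture in the falls of the 7 genes was not tested.

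The genes whose mCG followed the mean of the 7 most closely over the 8 libraries were Gm4793 (Pearson r = 0.981), Gm13619 (r = 0.978) and Cdc25b (r = 0.974), given as a description because all share the same libraries and genotype difference. Gm4793 went from 81.3% to 67.1% and Gm13619 from 78.1% to 62.7%. Cdc25b, which encodes a phosphatase that activates cell cycle kinases, went from 89.3% ± 1.32 to 83.9% ± 0.850, a smaller change than in any of the 7 genes.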

How the data were processed

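The tools named in the submitters' processing notes are BS-Seeker2 and bedtools, and the build is mm9; versions, gene annotation, coverage filters and the part of each gene averaged are not given in the sources used here. The authors deposited 1 methylated fraction per gene and library for CA and for CG, multiplied by 100 here to give percent, with no counts or coverage, so no counting interval applies and values were not corrected for incomplete conversion. The deposited methylated sites per length, a score whose header unit does not match its size, served only for CG density relative to the median gene. Of the 8 columns of the authors' group means, only the WT mean for CG enters the values given here.

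The 7 genes, the gene lists and the tests were chosen with earlier results of these data known. Genes measured in all 8 libraries were tested with limma 3.58.1 in R 4.3.3 (eBayes with a trend) on the fraction, hKO against WT, with Benjamini-Hochberg adjustment over all of them and a threshold of 0.05; no p is given for the 7 genes. On simulated data with 100 genes lowered and 100 raised, the fits returned the differences put in on average. The changed genes were drawn only from genes whose WT mean lay more than 2 times the change from both 0 and 100%. In mCG the fits called 9 of the lowered and 19 of the raised genes at 10 points, and 53 and 52 at 20 points. At 20 points the draw held only genes of middle WT mCG and none of the 7, so these counts do not describe all genes. Since many changed genes were missed, 0 calls in mCG does not show that no gene changed. In mCA the fits called 5 and 0 at 1 point, and 48 and 47 at 2 points. The real mCA data had far more genes called than were changed there, so these mCA numbers do not describe that fit. Beyond the 7, the rule named up to 2 relatives per list with the largest passing mCA difference, up to 3 per list passing in mCG, both neighbours of each gene, the 3 genes most like the 7, 5 genes with the widest other gaps, 3 just under the smallest gap, and Dnmt3a. Myc, as the largest difference among relatives, Cdkn2a, as their smallest mCG share, and Fezf2, as the largest mCG fall among markers, were added after their values were seen. Gene order came from RefSeq (GRCm38.p6), in which 24888 of 34193 rows matched by symbol and 2912 by synonym. The labels name separate animals. Alternatives were the logit scale, subtraction of library medians, sex as covariate, each sex alone, a block for the title number, each animal left out and medians in place of means. Tables were made with Python 3.11.15, pandas 2.3.3 and numpy 2.4.6.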

Additional observations from a re-analysis of the deposited data

Results flagged for a closer look

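In 2 of 28 groups of 4 animals, 1 animal stood far from the other 3 by Dixon's ratio (gap to the nearest animal over the whole range, past its 95% critical value), and chance gives about 1 such group in 20. Mycl1 mCA was 2.52% in WT animal 695 against 3.74% to 3.93% in the other WT animals (ratio 0.865). Enpp7 mCA was listed at 0 in hKO animal 047-1 against 1.46% to 1.58% in the other hKO animals (ratio 0.926). No mCG group of the 7 genes had such an animal.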

How the results depend on the processing

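Of 84 recomputed mCG differences of the 7 genes, 79 moved by less than the spread between animals, 5 by more and none changed sign; for mCA the numbers were 76, 7 and 1, and the change of sign was Nxph4 with library medians subtracted (0.0809 points). The mCG count of called genes was 0, except 1 in females alone (Gm11236, higher in hKO) and a range of 0 to 1 with each animal left out (Gm14421, higher, without WT animal 047-2, and Gm9881, lower, without hKO animal 651-2, all named after their values were seen). The count lower in mCA was 5283 with library medians subtracted and 7841 in females alone, with 13543 to 16024 over the animals left out, and that of relatives 30 and 36, with 65 to 75. Genes without overlap numbered 1105 to 4309 in mCG and 13810 to 15447 in mCA with each animal left out, where fewer animals make separation easier, and 998 and 4899 with library medians subtracted; both settings for these counts were chosen after seeing the data.

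Title numbers 046, 047 and 651 are shared by an hKO and a WT animal, but the correlation of their deviations (0.0845, 0.0858 and 0.120 in mCG, 0.0841, 0.114 and 0.0369 in mCA) was not above 0.1 in every pair, so the numbers were not taken as pairs. In mCG every sample correlated best with its own number. With the replicate block, mCG gave 0 genes, mCA 15732 lower and 72 relatives. Coverage per gene is unknown, so the precision of a single value cannot be given.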
